A study of Mus musculus with 2 samples.

Results

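The genes described here encode the machinery that shortens, uncaps and degrades messenger RNA, together with RNA-binding proteins that act on the same transcripts. They were 38 genes of the 31053 features counted in both libraries, listed by symbol as deadenylase subunits, adaptors, decapping factors, exonucleases and RNA-binding proteins. The rule uses no measured value, but the list was chosen with earlier results of these data known. Zfp36 and its paralogs were left out of the group and are given separately. For each genotype a single-cell RNA library was made from innate lymphoid cells (ILCs) sorted out of the lamina propria of the small intestine. The WT library pooled 4 C57BL/6 mice, and the knockout library pooled 4 Zfp36-/- mice of the same background. Zfp36 encodes tristetraprolin, an RNA-binding protein also called TTP, and both groups were sorted for live CD45+ cells with CD90.2 and CD127 on their surface and without lineage markers, TCRβ or CD3. The deletion was in every cell of the animal and not limited to ILCs, and the labels used here give neither age nor treatment.

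Decay of most cytoplasmic messenger RNAs begins when the CCR4-NOT and PAN2-PAN3 complexes shorten the poly(A) tail. The decapping enzyme and its activators then remove the cap, XRN1 degrades the RNA from the 5′ end and the exosome degrades it from the 3′ end. Tristetraprolin binds AU-rich elements in the 3′ untranslated region (3′ UTR) of cytokine and immediate-early transcripts and recruits CCR4-NOT and decapping factors to them. HuR (Elavl1), AUF1 (Hnrnpd), KSRP (Khsrp), TIA-1 (Tia1) and TIAR (Tial1) bind related elements, while Roquin (Rc3h1, Rc3h2) and Regnase-1 (Zc3h12a) act on stem-loops in overlapping sets of inflammatory transcripts. The comparison asked whether decay partners, or other proteins that bind AU-rich elements, were more abundant where Zfp36 was lost.

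Several members carry, in their own 3′ UTR, the nonamer TTATTTATT that tristetraprolin is known to bind. The 6 sites below lie in transcripts of the group or of Zfp36 itself. Each is given with 10 flanking bases, 5′ to 3′ on the transcript strand in DNA letters. The member Edc3 also holds 1 nonamer, which is not shown. Capitals mark 1 nonamer per site, and in the Elavl1 stretch the lower-case bases after it complete further overlapping copies. The sequences come from the GRCm38 (mm10) genome and the longest GENCODE M21 3′ UTR of each gene.
Xrn1, chr9:96055253-96055281, plus strand: actagaaaagTTATTTATTtgattaagcc
Rc3h1, chr1:160970043-160970071, plus strand: actttactcaTTATTTATTgagatgagga
Rc3h2, chr2:37373287-37373315, minus strand: caaagacattTTATTTATTttactctgta
Cnot6l, chr5:96071161-96071189, minus strand: agggaagagaTTATTTATTtttgtttcct
Elavl1, chr8:4285788-4285816, minus strand: gtcatgaaaaTTATTTATTtatttattta
Zfp36, chr7:28376951-28376979, minus strand: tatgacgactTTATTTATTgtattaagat
The Elavl1 3′ UTR holds 8 copies of the nonamer, which overlap one another in part, and the other 5 genes shown hold 1 each.

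The WT library held 3593 barcodes and 24721524 unique molecular identifiers (UMIs, each counting 1 captured transcript), and the knockout library held 3522 barcodes and 27733804 UMIs. After filtering, 3360 and 3334 cells were kept, with medians of 5292.5 and 5336.5 UMIs per cell. Cells were assigned to classes by summed marker UMIs. The ILC3-like class (Il23r, Il1r1 and others) had 760 WT and 839 knockout cells, the ILC2-like class (Gata3, Il1rl1 and others) had 662 and 1203, and the ILC1/NK-like class (Tbx21, Eomes and others) had 126 and 132. Despite the sort against CD3 and lineage markers, T-cell-like cells made up 1220 of the kept WT cells and 86 of the kept knockout cells, B and plasma-like cells numbered 114 and 161, and myeloid-like cells 92 and 394. Ratios are given for classes with at least 100 cells in each library. A Y-linked UMI was found in 0.119% of WT and 16.02% of knockout cells, so the pools differed in the sex of their animals. The libraries shared 2 barcodes.

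Zfp36 itself was at 1159 CPM in WT and 290 CPM in knockout ILC3-like cells, where CPM is a gene's UMIs divided by all UMIs of the class and scaled to 1000000. The log2 ratio of knockout over WT was -2.00 (95% interval -2.10 to -1.90). In ILC2-like cells Zfp36 was at 724 and 335 CPM, a log2 ratio of -1.11 (-1.19 to -1.04), and in ILC1/NK-like cells the log2 ratio was -1.24 (-1.49 to -0.99). The labels do not say which part of the gene was altered, and the libraries count 3′ ends, so the remaining Zfp36 UMIs do not show whether protein is made. The paralog Zfp36l1 was lower in the knockout library in all 3 classes, with log2 ratios of -0.37, -0.21 and -0.29 in ILC3-like, ILC2-like and ILC1/NK-like cells. For Zfp36l2 the log2 ratio was -0.29 in ILC3-like, 0.15 in ILC2-like and 0.12 in ILC1/NK-like cells. No UMI of Zfp36l3 was counted in these classes.

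With 1 pooled library per genotype there is no replicate check and no test, and genotype cannot be told apart from the pool. All intervals are exact 95% intervals that cover counting error only. A gene was called higher or lower when its CPM differed by at least 1.5-fold, and was measured when both libraries together gave at least 50 UMIs. Most genes had a ratio slightly above 1: the median log2 ratio over all measured genes was 0.16 in ILC3-like and 0.17 in ILC2-like cells. Ribosomal protein genes took 17.1% of the UMIs of ILC3-like cells in WT and 12.7% in knockout, and for ILC2-like cells 29.7% and 24.99%. With the total taken without ribosomal and mitochondrial genes, both medians were 0.09.

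Most decay factors were slightly more abundant in the knockout library in both main ILC classes. In ILC3-like cells 37 of the 38 members were measured, and their median log2 ratio was 0.23. There, 7 were called higher (18.9%), against 14.8% of all 9152 measured genes, and 1 was called lower, against 4.21%. In ILC2-like cells the median of 37 members was 0.29, and 4 were called higher (10.8%), against 15.5% of 9270 genes, and 0 lower, against 3.02%. Relative to the median of all genes, 3 members were called higher and 1 lower in each class, against 8.21% and 7.82% of genes in ILC3-like and 8.18% and 6.42% in ILC2-like cells. The 3 still called higher were Pan2, Xrn1 and Rc3h1 in ILC3-like cells, and Cnot6, Ddx6 and Xrn1 in ILC2-like cells. The shares past 1.5-fold were near those of all genes, while smaller differences were more often in the higher direction. The counting interval was above 0 for 20 of the 37 members in each class, against 31% of all genes in ILC3-like and 33.1% in ILC2-like cells, and below 0 for 2 and 3, against 11.7% and 11.5%. Members gave more UMIs, a median of 619 against 271 over all genes in ILC3-like and 701 against 340.5 in ILC2-like cells, and more UMIs narrow an interval. Above the median of all genes stood 26 of the 37 in each class. Zc3h12d, which encodes Regnase-4, was the unmeasured member in both classes, for which ILC3-like cells gave 9 UMIs in each library and ILC2-like cells gave 1 and 3. The log2 ratio was above 0 for 31 members in ILC3-like cells, where 65.6% of all genes were above 0, and for 33 in ILC2-like cells, where the share of all genes was 66.8%. Of the 37 members, 35 had the same direction in both classes, and the share of all genes that did was not counted.

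**Figure D1:**
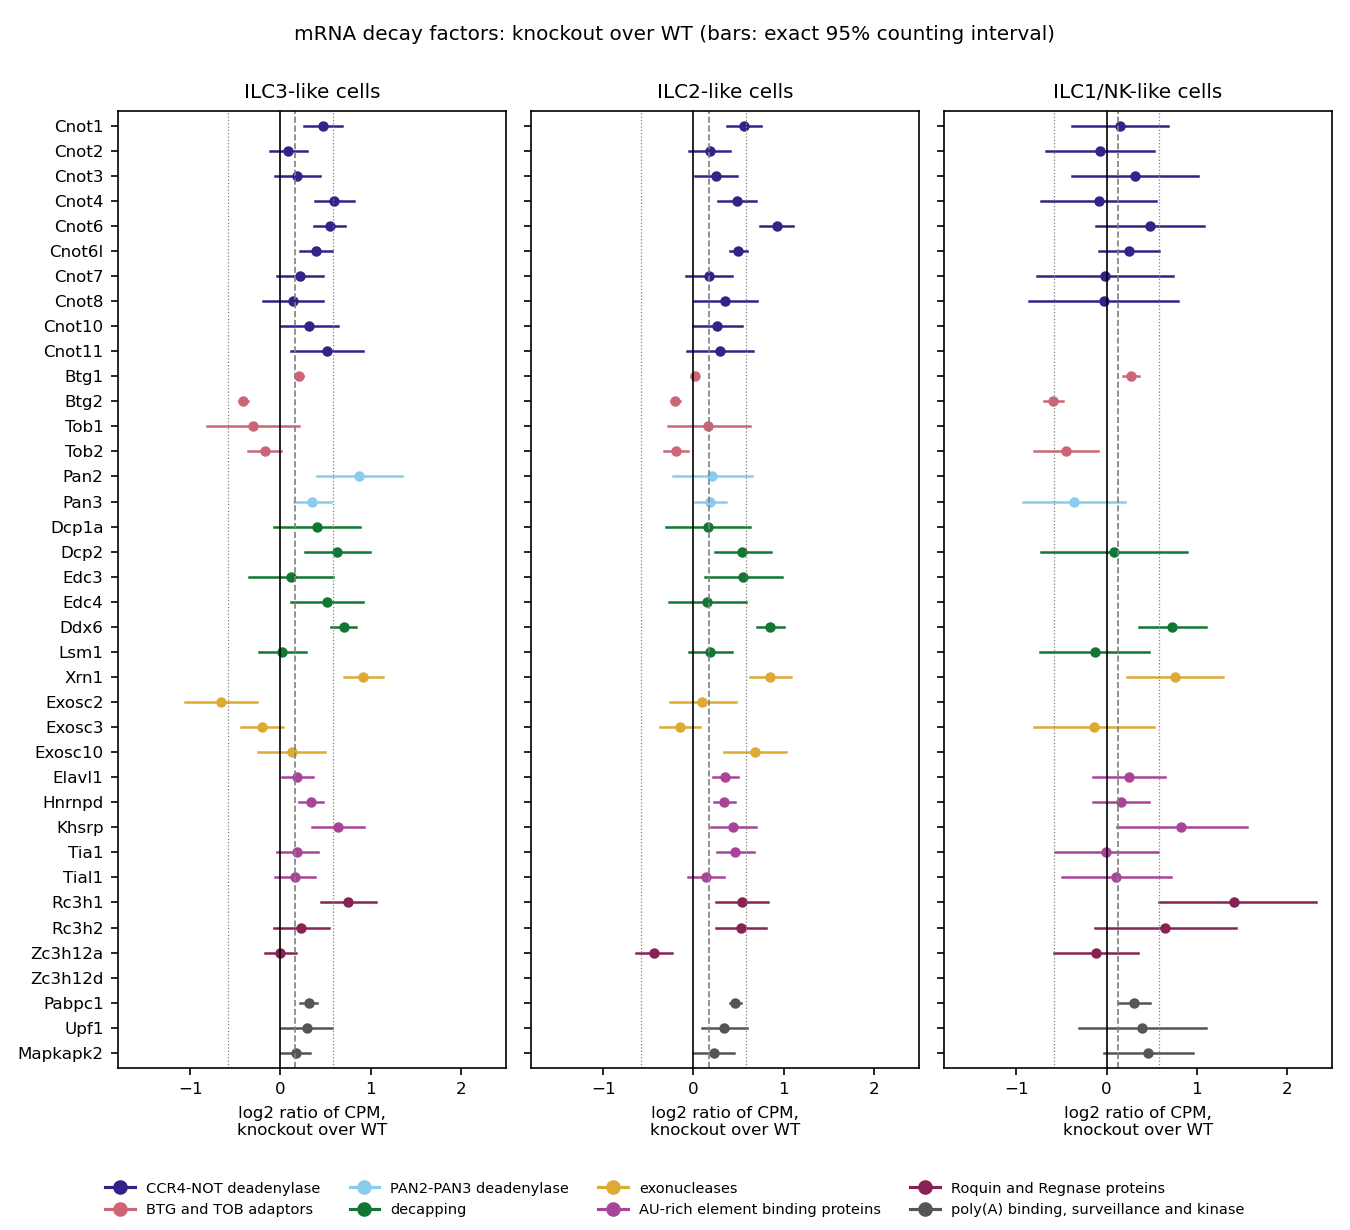
Log2 ratio of CPM, knockout over WT (x axis), for each decay factor (y axis, grouped by role and coloured) in ILC3-like, ILC2-like and ILC1/NK-like cells. Points are ratios of the summed UMIs of 1 library per genotype, bars are exact 95% counting intervals, the dashed line is the median of all measured genes, dotted lines mark a 1.5-fold difference, and unmeasured genes are left blank. Ddx6 and Xrn1 lie right of the dotted line in all 3 classes, and Btg2 lies left of 0 in all 3.

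**Figure D2:**
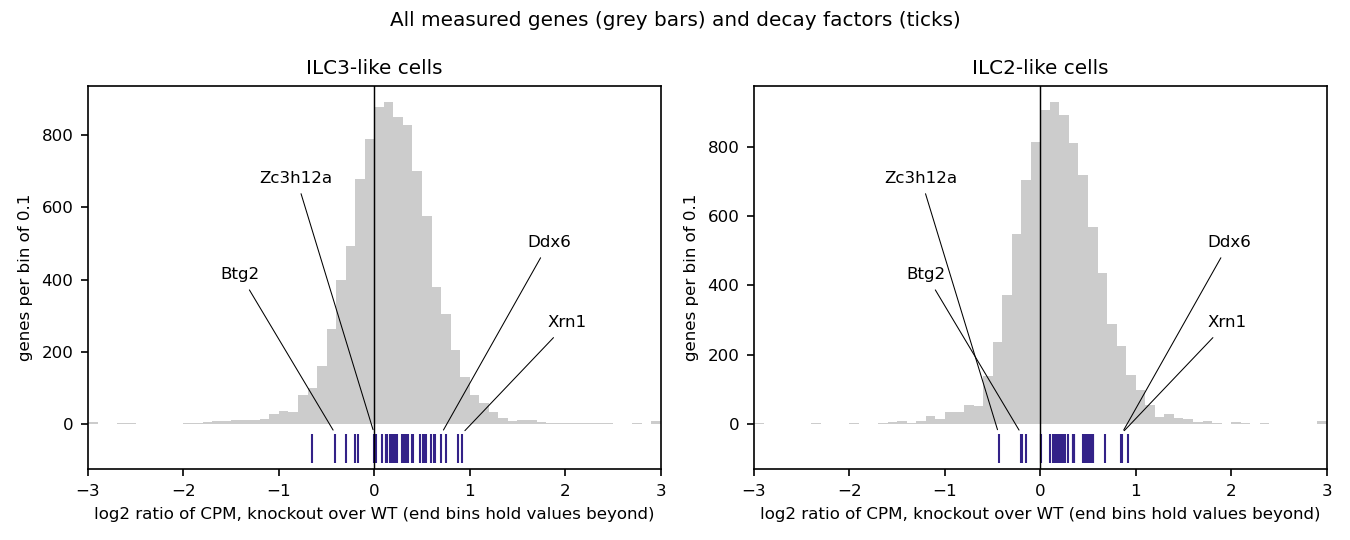
Number of genes (y axis) per bin of log2 ratio of CPM, knockout over WT (x axis), for all measured genes in ILC3-like and ILC2-like cells, with each decay factor as a tick below. The ticks lie within the middle of the range of the bars, from -0.66 to 0.92 in ILC3-like cells and from -0.44 to 0.92 in ILC2-like cells.

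The 10 CCR4-NOT genes were all above 0 in both classes, with medians of 0.36 in ILC3-like and 0.32 in ILC2-like cells. Relative to the median of all genes, 8 of 10 and 9 of 10 were above it. Cnot6, a catalytic deadenylase subunit, went from 71.5 CPM in WT to 136 CPM in knockout ILC2-like cells, a log2 ratio of 0.92 (0.74 to 1.11). The ILC3-like levels of Cnot6 were 127 CPM in WT and 186 CPM in knockout cells, a 1.46-fold difference just under the threshold. Cnot4, a ubiquitin ligase linked to the complex, was just over it in ILC3-like cells, at 80.6 and 122 CPM, or 1.51-fold (log2 interval 0.38 to 0.82). The scaffold subunit Cnot1 was at 88.1 and 122 CPM in ILC3-like cells, a log2 ratio of 0.47 (0.26 to 0.68), and at 74.2 and 109 CPM in ILC2-like cells, a log2 ratio of 0.56 (0.37 to 0.75). The Cnot1 difference in ILC2-like cells was 1.47-fold, the nearest to the threshold from below. Cnot6l, the paralog of Cnot6, was at 284 and 401 CPM in ILC2-like cells, a log2 ratio of 0.50 (0.40 to 0.59). The pocket-exonuclease paralogs Cnot7 and Cnot8 had intervals that included 0 in ILC3-like cells, with log2 ratios of 0.22 and 0.14. The remaining subunits, Cnot2, Cnot3, Cnot10 and Cnot11, had log2 ratios between 0.09 and 0.51 in ILC3-like cells.

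The BTG and TOB adaptors, antiproliferative proteins that bind the CCR4-NOT nuclease and speed deadenylation, stood below the other groups, with medians of -0.24 in ILC3-like and -0.09 in ILC2-like cells. Btg2 was at 1934 CPM in WT and 1456 CPM in knockout ILC3-like cells, from 7217 and 5268 UMIs, or 1.33-fold lower in the knockout library (log2 ratio -0.41, -0.46 to -0.36). In ILC2-like cells Btg2 was at 1256 and 1093 CPM (log2 ratio -0.20, -0.25 to -0.15), and in ILC1/NK-like cells at 2624 and 1743 CPM (-0.59, -0.70 to -0.48). The T-cell-like and myeloid-like classes, which allowed no ratio, held different cells in the 2 libraries. In T-cell-like cells the summed T cell markers were at 7346 CPM in WT and 4073 CPM in knockout, while ILC2 markers were at 698 and 1696 CPM and ILC3 markers at 460 and 1318 CPM. In myeloid-like cells macrophage markers were at 7757 and 5088 CPM, dendritic cell markers at 9154 and 6870 CPM, and the median cell had 0 and 11 UMIs of the dendritic cell genes used to assign it. The part of these shifts in the values of either class was not tested. Btg2 had the lower value in the knockout library in all 6 gated classes, at 1162 and 1143 CPM in T-cell-like, 187 and 162 CPM in B and plasma-like and 1517 and 1047 CPM in myeloid-like cells. Tob2 was likewise lower in value in all 6, although its ratio interval included 0 in ILC3-like cells (136 and 120 CPM, -0.36 to 0.01). In B and plasma-like cells Tob2 rested on 30 and 29 UMIs, with overlapping CPM intervals. They also overlapped in myeloid-like cells (98.8 to 137 and 104 to 119 CPM). Of the 3733 genes measured in all 4 classes that allowed ratios, 13.3% were below 0 in each, and of the 28 members measured there 2 were, Btg2 and Tob2. The close paralog Btg1 did not share this: it was at 1958 and 2265 CPM in ILC3-like cells (log2 ratio 0.21, 0.16 to 0.26) and at 1646 and 1660 CPM in ILC2-like cells (0.01, -0.03 to 0.05). Tob1 gave 75 and 59 UMIs in ILC3-like cells, with a log2 ratio of -0.30 (-0.82 to 0.21).

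Btg2 is an immediate-early gene, and many immediate-early and dissociation-associated genes were lower in the same cells. Of 20 such genes measured in ILC3-like cells, 13 had an interval below 0, against 11.7% of all genes, and 2 had one above 0, with a median log2 ratio of -0.32. Of 20 in ILC2-like cells, 11 were below 0, against 11.5%, and 6 above, with a median of -0.23. Their summed level in WT and knockout was 23245 and 19067 CPM in ILC3-like cells, 17318 and 15394 CPM in ILC2-like cells, and 20939 and 16628 CPM in ILC1/NK-like cells. All 22 listed genes had UMIs in both libraries. Their part in the Btg2 difference was not tested. The promoter of Btg2 is shown because it holds a cyclic AMP response element, TGACGTCA, marked in capitals, which is typical of stimulus-induced genes. The window runs from 250 bases before to 50 bases after the start, chr1:134079106-134079405 on the minus strand, from RefSeq on GRCm38.p6.
Btg2: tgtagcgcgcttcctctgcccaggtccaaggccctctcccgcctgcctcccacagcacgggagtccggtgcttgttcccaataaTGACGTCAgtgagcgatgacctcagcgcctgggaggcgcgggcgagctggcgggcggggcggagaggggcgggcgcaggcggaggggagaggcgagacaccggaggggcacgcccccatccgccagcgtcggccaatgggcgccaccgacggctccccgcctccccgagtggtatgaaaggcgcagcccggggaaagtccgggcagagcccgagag
On both strands, 1.79% of 32851 promoter windows of this length hold TGACGTCA. The windows of Tob2, Zc3h12a and Zfp36 hold neither it nor TGANTCA, GCGTGGGCG or TATAAA. These are 1 form each of the AP-1 motif (in 7.81% of windows), the EGR motif (in 0.612%) and the TATA box (in 13.6%). Other forms were not searched. Among the other member windows searched, those of Pan2 and Rc3h1 each hold 1 TGANTCA, and those of Btg1 and Tob1 each hold 1 TATAAA. Pan2 and Rc3h1 were called higher in knockout ILC3-like cells. The Zfp36 window holds the near match GCGGGGGCG, so the search does not show that this window lacks an EGR site or a TATA-like site.

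Of the PAN2-PAN3 complex, which trims long poly(A) tails, the catalytic subunit Pan2 was at 16.6 and 30.4 CPM in ILC3-like cells, from 62 and 110 UMIs (log2 ratio 0.87, 0.41 to 1.35). In ILC2-like cells Pan2 was at 15.6 and 17.9 CPM, and the interval included 0 (-0.22 to 0.65). The regulatory subunit Pan3 had log2 ratios of 0.36 and 0.18 in these classes.

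The 6 decapping genes were all above 0 in both ILC classes, with medians of 0.46 and 0.36, and 4 of 6 were above the median of all genes in each. Ddx6, the RNA helicase that links CCR4-NOT to decapping and translational repression, was at 186 CPM in WT and 303 CPM in knockout ILC3-like cells, from 694 and 1095 UMIs. That is a 1.63-fold difference (log2 ratio 0.70, 0.56 to 0.84). In ILC2-like cells Ddx6 was at 108 and 195 CPM, or 1.81-fold (fold interval 1.63 to 2.005, log2 ratio 0.85). Relative to the median of all genes, the log2 ratio of Ddx6 was 0.68 in ILC2-like and 0.54 in ILC3-like cells, where it no longer reached 1.5-fold. Dcp2, the decapping enzyme, was at 28.9 and 44.8 CPM in ILC3-like cells (log2 ratio 0.63, 0.27 to 0.99) and at 28.0 and 40.8 CPM in ILC2-like cells (0.54, 0.24 to 0.85). The cofactors Edc3 and Edc4 and the decapping activators Dcp1a and Lsm1 were each within 1.5-fold in both classes, with log2 ratios between 0.02 and 0.55.

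Xrn1, the 5′-to-3′ exonuclease that acts after decapping, was at 72.1 CPM in WT and 136 CPM in knockout ILC3-like cells, from 269 and 493 UMIs, or 1.89-fold (log2 ratio 0.92, 0.70 to 1.14). In ILC2-like cells Xrn1 was at 48.9 and 88.1 CPM, or 1.80-fold (log2 ratio 0.85, 0.63 to 1.08). Its ratio stayed above 1.5-fold relative to the median of all genes, at 0.76 and 0.68 on the log2 scale. The exosome genes were not uniformly higher. The cap subunit Exosc2 was at 38.3 and 24.3 CPM in ILC3-like cells (log2 ratio -0.66, -1.06 to -0.26), but 1 WT cell held 19.6% of its WT UMIs. Without the cell of each library that held the most Exosc2 UMIs, the log2 ratio was -0.41 and its interval reached 0.01, so the call rested on that cell. In ILC2-like cells Exosc2 had a log2 ratio of 0.10 (-0.26 to 0.47). Exosc3, another cap subunit, had log2 ratios of -0.20 and -0.15, with intervals that included 0. The nuclear exonuclease Exosc10 was at 22.2 and 35.6 CPM in ILC2-like cells, or 1.60-fold (log2 ratio 0.68, 0.34 to 1.03), and at 32.4 and 35.4 CPM in ILC3-like cells (0.13, -0.24 to 0.50).

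The other proteins that bind AU-rich elements were slightly higher in the knockout library. All 5 had ratios above 0, and 5 of 5 in ILC3-like and 4 of 5 in ILC2-like cells were above the median of all genes, with medians of 0.19 in ILC3-like and 0.35 in ILC2-like cells. In ILC3-like cells 3 of the 5 intervals were above 0, where 31% of all genes had such an interval, and in ILC2-like cells 4 of 5, against 33.1%. Elavl1, which encodes the stabilizing protein HuR, was at 141 and 160 CPM in ILC3-like cells (log2 ratio 0.19, 0.01 to 0.36) and at 132 and 168 CPM in ILC2-like cells (0.35, 0.21 to 0.50). Hnrnpd was at 223 and 282 CPM in ILC3-like cells (0.34, 0.20 to 0.47) and at 197 and 250 CPM in ILC2-like cells (0.34, 0.23 to 0.46). Khsrp, a decay-promoting protein, was the 1 of the 5 past the threshold in ILC3-like cells, at 46.1 and 71.6 CPM (log2 ratio 0.64, 0.35 to 0.92), and relative to the median of all genes it was not past it. In ILC2-like cells Khsrp was at 43.1 and 58.6 CPM (0.44, 0.20 to 0.69). Tia1 and Tial1 had log2 ratios of 0.19 and 0.16 in ILC3-like and 0.46 and 0.13 in ILC2-like cells.

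Roquin-1 transcripts were higher in the knockout library in both main ILC classes, while those of Regnase-1 were level in ILC3-like and lower in ILC2-like cells. Rc3h1, which encodes Roquin-1, was at 38.8 and 65.5 CPM in ILC3-like cells, from 145 and 237 UMIs (log2 ratio 0.75, 0.45 to 1.06), and at 31.99 and 46.4 CPM in ILC2-like cells (0.53, 0.25 to 0.83). Rc3h2 had log2 ratios of 0.23 and 0.52. Zc3h12a, the endonuclease Regnase-1, was at 147 CPM in both libraries in ILC3-like cells, with a log2 interval of -0.18 to 0.17. In ILC2-like cells it was at 86.4 CPM in WT and 63.9 CPM in knockout cells, or 1.35-fold lower (log2 ratio -0.44, -0.63 to -0.24). Relative to the median of all genes in ILC2-like cells, Zc3h12a was past 1.5-fold in the lower direction.

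Pabpc1, the main cytoplasmic poly(A)-binding protein, was at 419 and 520 CPM in ILC3-like cells (log2 ratio 0.31, 0.22 to 0.41) and at 684 and 945 CPM in ILC2-like cells (0.47, 0.40 to 0.53). Upf1, the helicase of nonsense-mediated decay, had log2 ratios of 0.29 and 0.34. Mapkapk2, the kinase that phosphorylates and inactivates tristetraprolin, had log2 ratios of 0.17 and 0.22.

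Fewer UMIs limited the ILC1/NK-like class, in which 28 members were measured. Of these, 5 were called higher, against 17.2% of 4201 genes, and 1 was called lower, against 5.57%. The 5 were Ddx6 (150 and 249 CPM, log2 ratio 0.73, 0.36 to 1.10), Xrn1 (73.7 and 125 CPM, 0.76, 0.23 to 1.30), Khsrp, Rc3h1 and Rc3h2, whose interval included 0 (-0.13 to 1.44). Rc3h1 had the highest ratio, at 25.1 and 66.9 CPM, but from 17 and 43 UMIs. The member called lower was Btg2. The make-up of this class also differed between the libraries: its ILC1/NK markers were at 10713 CPM in WT and 7627 CPM in knockout cells, markers of lymphoid tissue inducer-like ILC3 at 117 and 691 CPM, dendritic cell markers at 114 and 386 CPM and ILC2 markers at 146 and 344 CPM. Their part in these ratios was not tested. In B and plasma-like cells, where the listed B and plasma cell markers took 691001 CPM in WT and 626913 CPM in knockout cells and so lowered every other gene, 8 of 33 measured members were called higher, against 28.3% of 5965 genes. Xrn1 was among them, at 8.13 and 29.3 CPM (log2 ratio 1.85, 1.28 to 2.46), and Btg1 was the 1 member called lower, at 106 and 52.7 CPM, against 2.92% of all genes. Ddx6 and Xrn1 were called higher in all 4 classes with ratios, as were 4.18% of the genes measured in all 4. These calls were not relative to the median log2 ratio of all genes, which was 0.29 in B and plasma-like cells. Relative to that median, Ddx6 was not past 1.5-fold in ILC3-like cells, nor in B and plasma-like cells, at 25.4 and 40.6 CPM. Both genes were higher in value in T-cell-like and myeloid-like cells too, classes whose markers also shifted. Xrn1 was at 74.7 and 112 CPM in T-cell-like and at 33.2 and 64.1 CPM in myeloid-like cells.

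**Figure D3:**
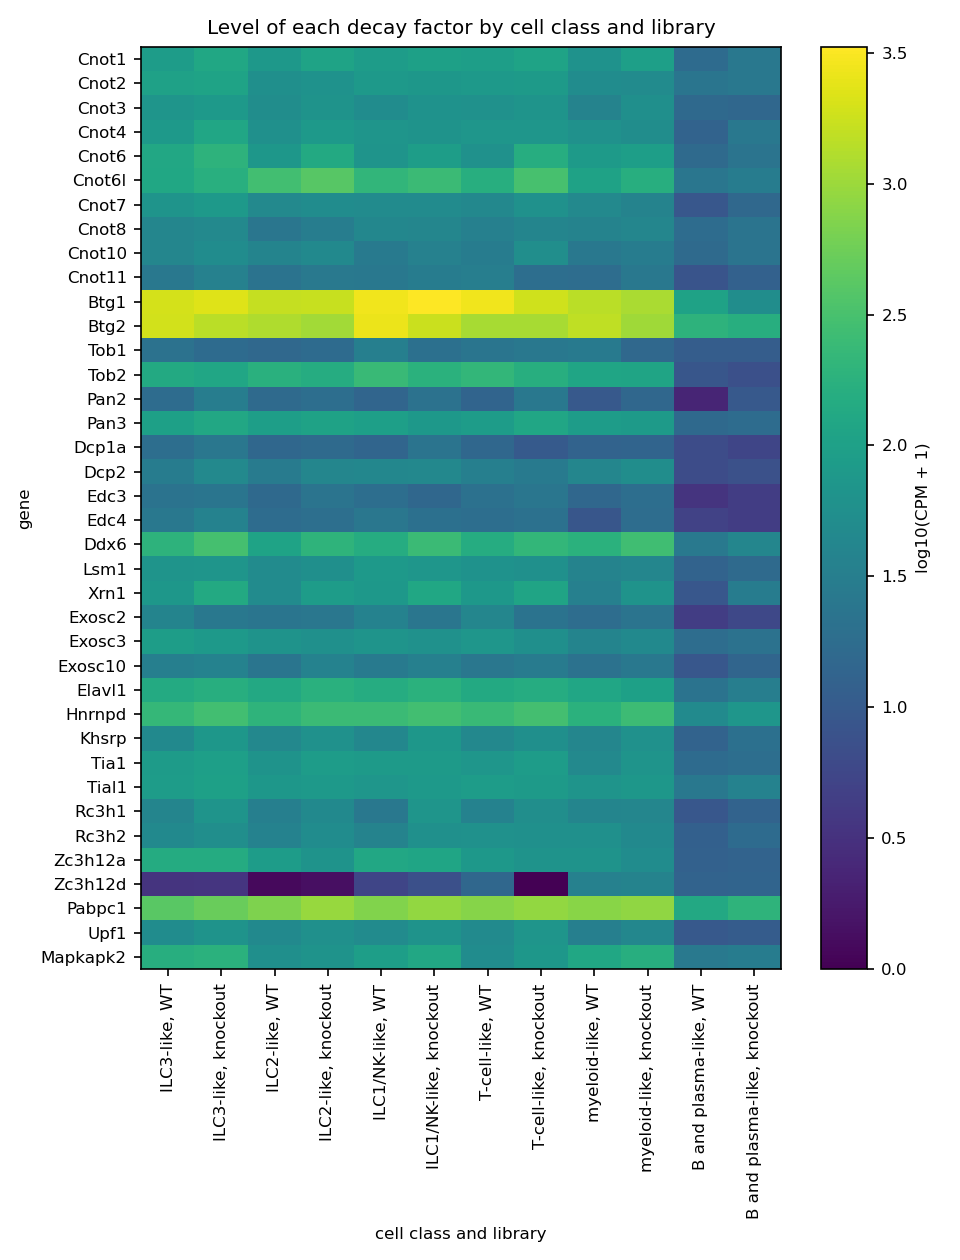
Level of each decay factor (rows) in each cell class and library (columns), as log10(CPM + 1) of summed UMIs by colour, with no error shown. Both B and plasma-like columns are darker than the ILC3-like columns of the same library for every member except Zc3h12d, and Zc3h12d is at its brightest in the myeloid-like columns, at 34.8 and 36.8 CPM.

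By class, the highest level of 21 members in WT and 20 members in knockout cells was in ILC3-like cells, but only 4 and 1 of these had an interval clear of the next class. The same counts were not made over all genes, so this order is not shown to be particular to decay factors. Zc3h12a was highest in ILC3-like cells in both libraries, and ILC1/NK-like cells, at 128 and 118 CPM, were not apart from them. Cnot6l was highest in ILC2-like cells at 284 and 401 CPM, clear of the next class in both libraries. Btg2 was highest in ILC1/NK-like cells in both libraries. Zc3h12d was highest in myeloid-like cells, at 34.8 CPM in WT and 36.8 CPM in knockout cells, and reached 14.1 CPM in WT T-cell-like cells.

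ILC3-like cells were divided by Ccr6, a marker of lymphoid tissue inducer-like ILC3, and by Ncr1, which encodes the receptor NKp46. Of the ILC3-like cells, Ccr6+ cells made up 43.2% in WT and 29.4% in knockout, Ncr1+ cells without Ccr6 35.8% and 32.4%, and cells with neither 21.1% and 38.1%. Xrn1 was higher in the knockout library in each subset, with log2 ratios of 0.97 (0.62 to 1.33) in Ccr6+, 0.81 (0.44 to 1.17) in Ncr1+ and 1.11 (0.63 to 1.62) in the remaining cells. Ddx6 had log2 ratios of 0.71, 0.87 and 0.53 in the same order. Btg2 was lower in each, by a log2 ratio of -0.18 (-0.28 to -0.08) in Ccr6+, -0.54 (-0.62 to -0.47) in Ncr1+ and -0.52 (-0.62 to -0.41) in the remaining cells. Tob2 had log2 ratios of -0.64 in Ccr6+, 0.16 in Ncr1+ and -0.51 (-0.91 to -0.10) in the remaining cells, and the interval in Ncr1+ cells included 0. In the 3 subsets 9 of 36, 6 of 37 and 7 of 33 measured members were called higher, against 17.9%, 15.6% and 19.3% of all genes.

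Shares of cells with a UMI were compared after each cell was thinned to 2000 UMIs, which left out 12 WT and 18 knockout ILC3-like cells and 5 and 8 ILC2-like cells. A Ddx6 UMI was found in 32.6% (exact 95% binomial interval 29.3 to 36.1) of ILC3-like cells in WT and 45.6% (42.1 to 49.0) in knockout. Without thinning the shares were 57.0% and 69.4%. For Xrn1 the shares were 14.6% and 22.5% in ILC3-like cells, and 29.1% and 39.7% before thinning. A Btg2 UMI was found in 82.0% (79.0 to 84.6) and 74.2% (71.0 to 77.1) of ILC3-like cells, and in 92.2% and 86.5% before thinning. Zc3h12a was found in 16.9% (14.1 to 19.98) of WT and 10.4% (8.70 to 12.2) of knockout ILC2-like cells, and in 35.5% and 27.2% before thinning. The median cell had 4648.5 UMIs in WT and 4003 in knockout for the ILC3-like class, and 6226.5 and 5777 for the ILC2-like class. No gated class is known to lack these genes, so the share that free RNA gives was not measured.

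Which decay factors accompanied Zfp36 was described in WT cells with and without a Zfp36 UMI at 2000 UMIs per cell. In WT ILC3-like cells, 490 had a Zfp36 UMI and 258 did not. Btg2 was found in 91.0% (88.1 to 93.4) of cells with and 64.7% (58.6 to 70.5) of cells without Zfp36. Tob2 was found in 24.7% (20.9 to 28.8) and 11.6% (7.98 to 16.2), and Zc3h12a in 26.9% (23.1 to 31.1) and 16.7% (12.3 to 21.8). For each of these genes the intervals with and without Zfp36 did not overlap. The share of all genes with such intervals was not counted, so this is not shown to be particular to them. At 1.5-fold or more, 4 of 37 members passed, Tob1, Tob2, Dcp2 and Zc3h12a, against 8.83% of all genes, and Tob1 and Dcp2 had overlapping intervals. At 1000 UMIs per cell 2 of 31 passed, against 8.72%. Of the 20 immediate-early and dissociation genes 8 passed, among them Nr4a1, found in 72.9% and 35.7%. Ddx6 was found in 34.3% and 29.5%, Xrn1 in 13.7% and 16.3%, and Elavl1 in 21.2% and 27.9% of cells with and without Zfp36, and the intervals overlapped for each.

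In WT ILC2-like cells, with 303 and 354 cells, Btg2 was found in 84.2% and 73.4% of those with and without Zfp36, and Zc3h12a in 21.1% and 13.3%. Here 2 of 35 members, Zc3h12a and Upf1, reached 1.5-fold, against 6.8% of genes. Knockout cells were divided in the same way by their remaining Zfp36 UMIs, a comparison chosen after the data were seen. Btg2 was found in 87.9% and 68.0% of knockout ILC3-like cells with and without a Zfp36 UMI, and 0 of 37 members reached 1.5-fold, against 5.73% of genes. At 1000 UMIs per cell 3 of 34 did, against 8.44%. In knockout ILC2-like cells Zc3h12a was found in 17.9% (14.1 to 22.2) and 7.01% (5.37 to 8.97), one of 2 of 37 members past 1.5-fold, against 5.07% of genes.

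**Figure D4:**
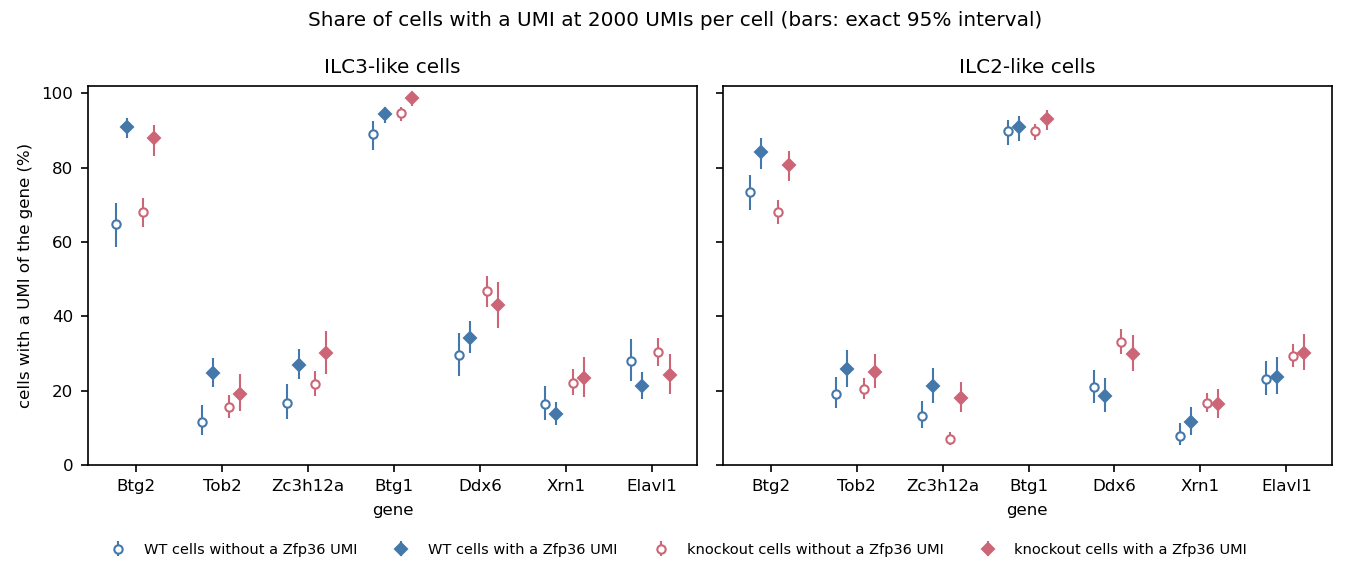
Share of cells with a UMI of each gene (y axis, percent, at 2000 UMIs per cell) in cells with (filled diamonds) and without (open circles) a Zfp36 UMI, in WT (blue) and knockout (red) ILC3-like and ILC2-like cells, with exact 95% binomial intervals. Btg2 is higher beside a Zfp36 UMI in all 4 comparisons, while the open and filled points of Ddx6, Xrn1 and Elavl1 have overlapping intervals in each library.

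The nonamer shown for Xrn1 and Rc3h1 was searched, with the shorter TATTTAT it contains, on the transcript strand of the longest 3′ UTR of each gene. TATTTAT was present in 17 of 37 measured members (45.9%) and in 31.0% of the 8909 genes with a 3′ UTR measured in ILC3-like cells, and TTATTTATT in 6 of 37 (16.2%) and 8.23% of the same genes. Over all genes in ILC3-like cells the median log2 ratio was 0.26 with TATTTAT and 0.12 without. Among members the medians were 0.22 with and 0.30 without it, the reverse order. In ILC2-like cells the medians were 0.28 and 0.12 over all genes, and 0.35 and 0.24 among members. For the longer TTATTTATT, held by only 6 members, the ILC3-like medians were 0.32 with and 0.22 without it among members, and 0.26 and 0.15 over all genes. The ILC2-like medians were 0.53 and 0.22 among members, and 0.24 and 0.17 over all genes. 3′ UTR length was not matched between these sets.

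Further genes of the same pathways, 82 found of a list of 83, had ratios above 0 for 61 of 77 measured in ILC3-like cells, against 65.6% of all genes, and for 60 of 78 in ILC2-like cells, against 66.8%. In ILC3-like cells 15 of 77 were called higher, against 14.8% of all genes, and 0 lower, against 4.21%, with a median log2 ratio of 0.31. In ILC2-like cells 14 of 78 were called higher, against 15.5%, and 0 lower, against 3.02%, with a median of 0.29. Smg1, the kinase of nonsense-mediated decay, was at 77.4 and 135 CPM in ILC3-like cells (log2 ratio 0.80, 0.59 to 1.02) and at 67.5 and 134 CPM in ILC2-like cells (0.99, 0.80 to 1.18). The RNA-binding proteins Larp4 and Syncrip were called higher in both classes, with log2 ratios of 0.89 and 0.71 in ILC3-like and 0.75 and 0.67 in ILC2-like cells. Hnrnpab, a relative of Hnrnpd, had log2 ratios of 0.69 and 0.61, the exosome helicase Skiv2l2 0.68 and 0.65, the decapping regulator Eif4enif1 0.64 and 0.60, the exosome nuclease Dis3 0.89 and 0.60, and Tnks1bp1 0.81 and 0.91. Lsm14b (1.29), the Argonautes Ago1 (0.92) and Ago4 (0.84), Fmr1 (0.85), Smg5 (0.72) and the m6A reader Ythdf1 (0.59) were among those called higher in ILC3-like cells, with log2 ratios in parentheses. In ILC2-like cells Zc3h12c (0.86), Ttc37 (0.84), Dis3l2 (0.80), N4bp1 (0.78), the nuclear exonuclease Xrn2 (0.70) and Celf1 (0.65) were. Whether the classes differed for these genes was not tested.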

How the data were processed

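Single-cell 3′ libraries of 2 pools, 1 per genotype, were analysed from the deposited raw UMI counts, which the authors made with Cell Ranger 3.1.0 per the file headers, on mm10 per the submitters' processing notes. How reads shared by near-identical copies, such as Pabpc1 pseudogenes, were counted is not given in the sources used here. Groups came from the sample titles. Cells with at least 500 genes and at most 10% mitochondrial UMIs were kept. Scrublet (scanpy 1.11.5, seed 0) marked 37 WT and 5 knockout cells as doublets, which is too few for it to have worked well, so cells positive for more than 1 of the B, macrophage and T gates were also left ungated.

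Gates, applied in order, were summed marker UMIs of at least 10 for B and plasma cells, 5 for macrophage or dendritic cells, 3 for T cells, 2 for ILC3, 5 for ILC2 and 3 for ILC1/NK, and their minima were set after counts were seen. Of the gated ILC3-like cells, 210 WT and 229 knockout cells were at the gate's minimum. UMIs were summed per class and library and divided by the class total (CPM). Exact Poisson, exact Clopper-Pearson binomial and binomial-split intervals at 95% were computed with Python 3.11.15, numpy 2.4.6, scipy 1.17.1 and pandas 2.3.3, and figures with matplotlib 3.10.9. The interval code was tested on simulated data.

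Members named in full were those at least 1.5-fold apart with an interval excluding 0 in ILC3-like or ILC2-like cells, and Btg1, Btg2, Tob1, Zc3h12a, Elavl1, Hnrnpd, Cnot1 and Pabpc1. Members and lists were chosen with earlier results of these data known. Alternatives were all barcodes, no doublet caller, stricter gates, per-cell means, other totals, a 200-UMI minimum, cells without Y-linked UMIs, reweighted subsets and 1000 UMIs per cell. Some gene names and values are not reported here.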

Additional observations from a re-analysis of the deposited data

Results flagged for a closer look

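Exosc2 went in opposite directions in the main ILC classes. Its log2 ratio of knockout over WT was -0.66 in ILC3-like cells and 0.10 in ILC2-like cells, where the counting interval (-0.26 to 0.47) included 0, and the difference between the classes was not tested. In ILC3-like cells the value was -0.41 without the cell of each library that held the most of its UMIs, 19.6% of them for the WT cell.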

How the results depend on the processing

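No paired analysis was possible because each genotype was 1 pooled library, and no replicate could be left out. In ILC3-like cells the members called higher numbered 7 and became 4 with the total taken without ribosomal and mitochondrial genes, when 11.6% of all genes were called, and 3 relative to the median of all genes, when 8.21% were. The member called lower there, 1, became 0 with the mean of per-cell CPM, without cells that had a Y-linked UMI, and, chosen after seeing the data, without the cell holding the most UMIs of each gene. Of all genes, 4.12% were called lower with per-cell means and 4.24% without cells that had a Y-linked UMI. In ILC2-like cells the members called lower went from 0 to 1 relative to the median of all genes, when 6.42% of all genes were called lower. In ILC1/NK-like cells the members called higher went from 5 of 28 to 1 of 8 measured with a minimum of 200 UMIs. The share of all genes called higher there went from 17.2% to 8.75%. The member called lower in this class, 1, became 0 with the mean of per-cell CPM, when 6.17% of all genes were called lower. At 1000 UMIs per cell, 2 of 31 members instead of 4 of 37 were 1.5-fold more often found beside Zfp36 in WT ILC3-like cells. The shares of all genes were 8.72% and 8.83%. The difference in the share of ILC3-like cells with Zc3h12a, knockout minus WT, turned from 0.965 points at 2000 UMIs to -0.136 points at 1000 UMIs. The cause was not tested, except that fewer genes were measured at 200 UMIs. Reweighting knockout ILC3 subsets to WT shares left all 37 member ratios within their counting intervals. The intervals say nothing of the spread between mice.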
